A study of Mesocricetus auratus with 6 samples.

Results

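Versican and the hyaluronan matrix were followed in uterine tissue of the Syrian golden hamster (Mesocricetus auratus), taken on day 5 of pregnancy as the blastocysts implant. The 10 genes were VCAN (versican), the hyaluronan synthases HAS1, HAS2 and HAS3, the hyaluronan-binding proteins HAPLN1, CD44, TNFAIP6 and HMMR, and the versican-cleaving proteases ADAMTS1 and ADAMTS5. All probe sets that the array's annotation gives to one of these symbols were taken, which found 22 of the 22283 probe sets, for 8 of the genes. HAS1 and HAS3 had no probe set under their symbols in the annotation used and were not analysed here. The genes were chosen by their roles with results of these arrays known, above all the measured difference of VCAN between the groups, so that differences between the groups are given below as a description of these genes. No p-value is given for any of them. SEs and intervals come from limma's moderated fit, which draws each probe set's spread between arrays toward a value shared over all probe sets. They can therefore differ from the spread of a probe set's own arrays, which the SDs describe. Counts of probe sets past a threshold stand beside the share over all probe sets, with nothing read from them.

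Implantation sites, pieces of uterus with an embryo, were compared with interimplantation sites, pieces of uterus between embryos, with 3 arrays in each group. The hamsters were untreated, and the labels give no age, genotype or strain beyond the species. According to the design text, RNA came from 3 animals, but no label ties an array to an animal, and the spread between arrays is the only measure of error. Hamster RNA was hybridised to probes designed on human transcripts, and a dim probe set may read a poorly matched transcript, so a low value does not show that the transcript is missing or unchanged.

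Hyaluronan is a long unsulfated polysaccharide that synthases in the plasma membrane extrude from the cell. Versican, a large chondroitin sulfate proteoglycan, binds it through its amino-terminal globular domain, and link protein (HAPLN1) locks the pair together, which gives a hydrated matrix that cells can move through and that proteases of the ADAMTS family can open again. CD44 and HMMR are receptors for hyaluronan, and TNFAIP6 transfers protein chains onto it and so cross-links it. Such matrix is known best from the cumulus around the ovulated egg and also forms in uterine stroma.

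Versican was higher at implantation sites, by a wide margin at 1 of its 5 probe sets, by less at 2 others, and with overlapping groups at the remaining 2. The largest difference in either direction among the 17 probe sets of the other 7 genes was 0.15 on the log2 scale, or 1.11-fold. In limma's fit across all probe sets, 1 of the 22 (4.55%) passed an adjusted p of 0.05, against 1.06% of all 22215 probe sets tested, and it was a VCAN probe set that was higher (0.702% of all probe sets passed as higher and 0.356% as lower). Because the choice of genes used this contrast, nothing is read from that count. The median difference of the 22 probe sets was 0.06, and that of all probe sets was −0.01.

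The VCAN probe set 211571_s_at had log2 values of 6.80, 6.80 and 6.90 at implantation sites, against 5.05, 5.66 and 5.40 at interimplantation sites. The lowest implantation array lay 1.14 above the highest interimplantation array, and the implantation arrays lay close together while the interimplantation arrays spread. Means were 6.83 ± 0.06 at implantation and 5.37 ± 0.31 at interimplantation sites (SD, n = 3 arrays each), a difference of 1.47 ± 0.13 (SE of the fit), or 2.76-fold. Of all probe sets tested, 2 had a larger difference in absolute size. Whichever array was left out, the difference was between 1.31 and 1.61.

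The dimmest VCAN probe sets were higher as well, by less. Probe set 215646_s_at gave 2.54, 2.85 and 2.86 at implantation sites, against 2.46, 2.26 and 2.31 at interimplantation sites. Probe set 204619_s_at gave 2.83, 2.81 and 2.90 at implantation sites, against 2.58, 2.49 and 2.73 at interimplantation sites. Neither pair of groups overlapped, with gaps of 0.085 and 0.076. The differences were 0.41 ± 0.10 and 0.25 ± 0.08 (SE), and neither probe set passed in the fit. Both lay below the first quartile of all probe set means, 3.10. No background level or detection call was analysed here. For 215646_s_at the call depended on the processing, since it passed without implantation site 1 and with array weights.

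Between these and the brightest lay a pair of VCAN probe sets with no visible difference. Probe set 221731_x_at had values of 4.62, 4.60 and 4.58 at implantation sites, against 4.66, 4.43 and 4.53 at interimplantation sites. At 204620_s_at the values were 4.32, 4.25 and 4.29 at implantation sites, against 4.47, 4.22 and 4.24 at interimplantation sites. The groups overlapped at both, with differences of 0.06 ± 0.08 and −0.03 ± 0.08 (SE) and 95% intervals of −0.12 to 0.23 and −0.21 to 0.16. With the mean of its 5 probe sets VCAN averaged 4.26 ± 0.04 at implantation and 3.83 ± 0.02 at interimplantation sites (SD, n = 3), a difference of 0.43. By their names, all 5 may read more than one transcript, since each ends in _s_at or _x_at. Which versican splice forms the probe sets cover was not analysed here.

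**Figure D1:**
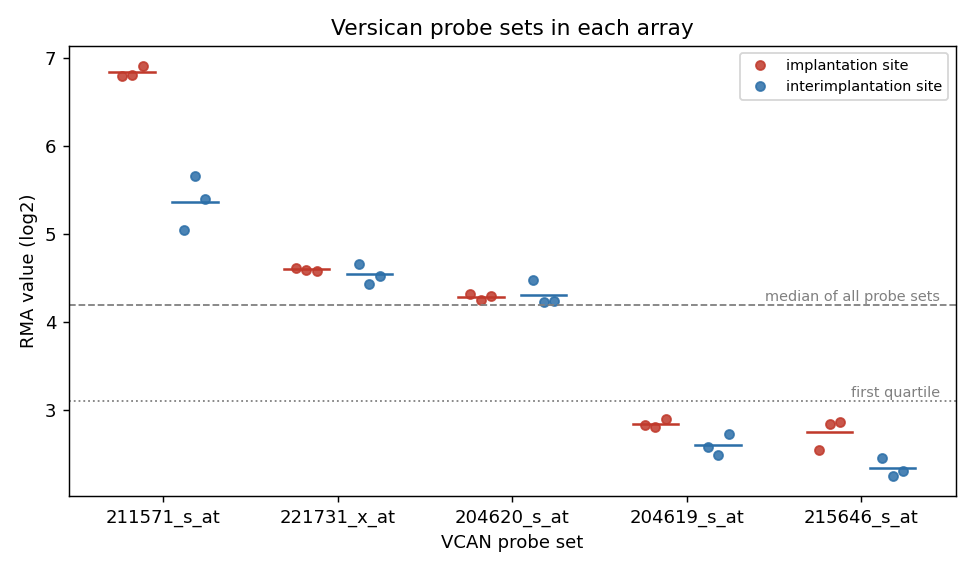
RMA values (log2) of the 5 VCAN probe sets in each array, with points for arrays, bars for group means, and lines at the first quartile and the median of all probe set means. At 211571_s_at the implantation arrays (6.80 to 6.90) lie well above the interimplantation arrays (5.05 to 5.66), at 221731_x_at and 204620_s_at the groups overlap, and the 2 dimmest probe sets show small gaps.

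The synthase HAS2, whose product makes hyaluronan at the cell surface, was dim. Its 1 probe set, 206432_at, read 2.38, 2.46 and 2.38 at implantation sites, against 2.21, 2.30 and 2.25 at interimplantation sites. All implantation arrays were above all interimplantation arrays, by a gap of 0.081. The difference of 0.15 ± 0.07 (SE) was the largest among the genes other than VCAN, and 6.97% of all probe sets were dimmer.

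HAPLN1, the link protein that fastens versican to hyaluronan, did not differ visibly. At its brighter probe set, 205524_s_at, it gave 5.07, 5.04 and 4.90 at implantation sites, against 4.84, 4.97 and 5.02 at interimplantation sites. The groups overlapped, and the difference was 0.06 ± 0.08 (SE). The second probe set was dim, at 2.22 ± 0.10 in implantation and 2.31 ± 0.05 in interimplantation sites (SD, n = 3).

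CD44, the main cell surface receptor for hyaluronan, had 8 probe sets, and their differences ran from −0.08 to 0.12. Values at the brightest, 204489_s_at, were 5.17, 5.24 and 5.32 at implantation sites, against 5.32, 5.14 and 5.19 at interimplantation sites, a difference of 0.03 ± 0.08 (SE). At 210916_s_at the implantation arrays read 4.95, 4.93 and 4.98 and the interimplantation arrays 5.04, 4.98 and 5.07, which is lower by a gap of 0.004 only. At the dimmest, 217523_at, the groups did not overlap in the opposite direction, at 2.26 ± 0.01 in implantation sites against 2.19 ± 0.02 in interimplantation sites (SD, n = 3). The other CD44 probe sets overlapped between the groups, and the mean of all 8 was 3.61 ± 0.02 at implantation sites and 3.60 ± 0.02 at interimplantation sites.

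HMMR, which binds hyaluronan at the cell surface and the spindle inside dividing cells, gave 4.96, 5.14 and 4.91 at implantation sites, against 4.99, 4.84 and 5.01 at interimplantation sites, at its brighter probe set 209709_s_at. The groups overlapped, with a difference of 0.06 ± 0.09 (SE), and the dim second probe set was at −0.02 ± 0.07. TNFAIP6, which hands the heavy chains of inter-alpha-inhibitor to hyaluronan, read 4.19, 4.33 and 4.27 at implantation sites, against 3.995, 4.13 and 4.34 at interimplantation sites, at 206025_s_at. Its highest interimplantation array equalled its highest implantation array within 0.01, and the difference was 0.11 ± 0.09 (SE). The dimmer TNFAIP6 probe set differed by 0.07 ± 0.10.

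ADAMTS1 and ADAMTS5 are secreted metalloproteases that cut versican in its core protein. The 1 probe set of ADAMTS1, 222162_s_at, gave 5.36, 5.34 and 5.34 at implantation sites, against 5.35, 5.18 and 5.22 at interimplantation sites, and interimplantation site 1 lay among the implantation arrays. The difference was 0.10 ± 0.08 (SE). ADAMTS5 gave 2.84, 2.87 and 3.01 at implantation sites, against 3.07, 2.99 and 3.03 at interimplantation sites, a difference of −0.12 ± 0.08 (SE) at a dim probe set, the lowest of all the genes here.

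**Figure D2:**
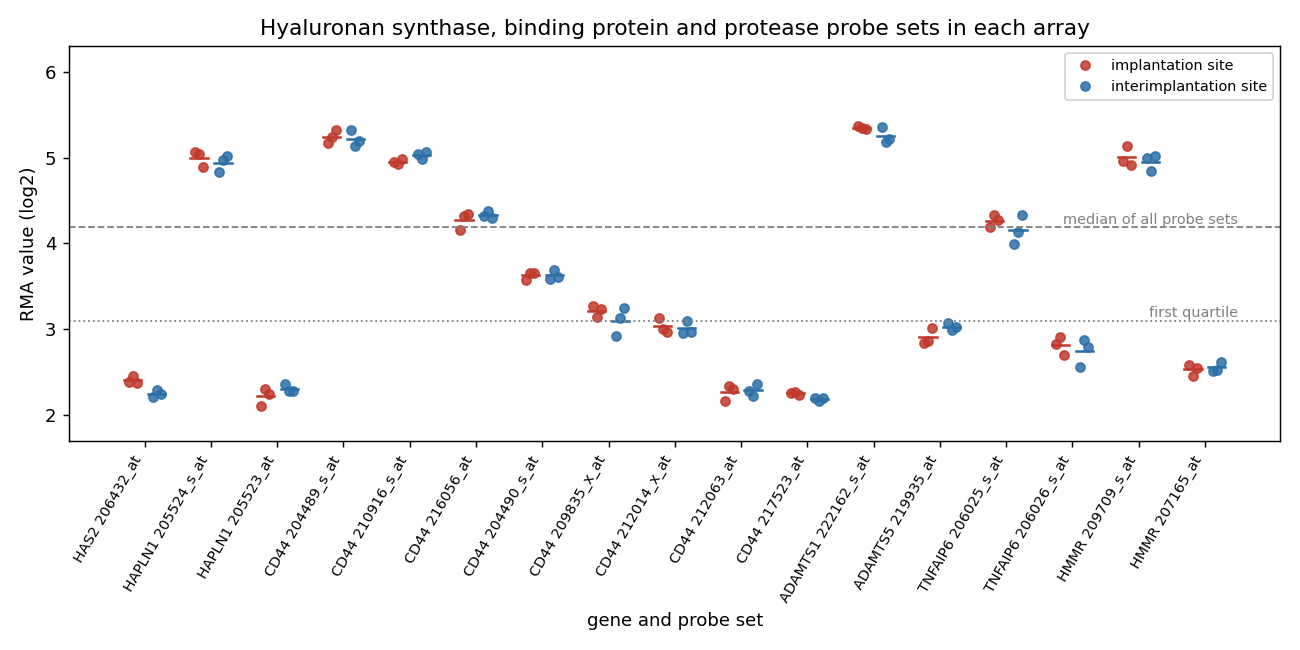
RMA values (log2) of the 17 probe sets of HAS2, HAPLN1, CD44, ADAMTS1, ADAMTS5, TNFAIP6 and HMMR in each array, with points for arrays, bars for group means and lines at the first quartile and median of all probe set means. The largest difference of group means is 0.15, at HAS2, and 8 of the 17 lie below the first quartile.

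Across the 17 probe sets outside VCAN, 10 were higher and 7 lower at implantation sites by any amount. Groups did not overlap at 3 of them (17.6%), and at 6 of all 22 probe sets, against 16.0% of all probe sets. Of the 6, 5 were higher and 1 lower, where 7.72% and 8.30% of all probe sets were. The 95% intervals of the 17 differences lay within −0.29 and 0.32, a 1.24-fold change at most. Each interval describes the signal of its probe set only and sets no bound on the change of the transcript. This limit is plainest for the 8 probe sets below the first quartile, since dim probe sets may not read the hamster transcript. It holds for brighter ones too. VCAN 221731_x_at and 204620_s_at, with means of 4.57 and 4.30, were above the median brightness of 4.19. They differed by 0.06 and −0.03, where VCAN 211571_s_at differed by 1.47.

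**Figure D3:**
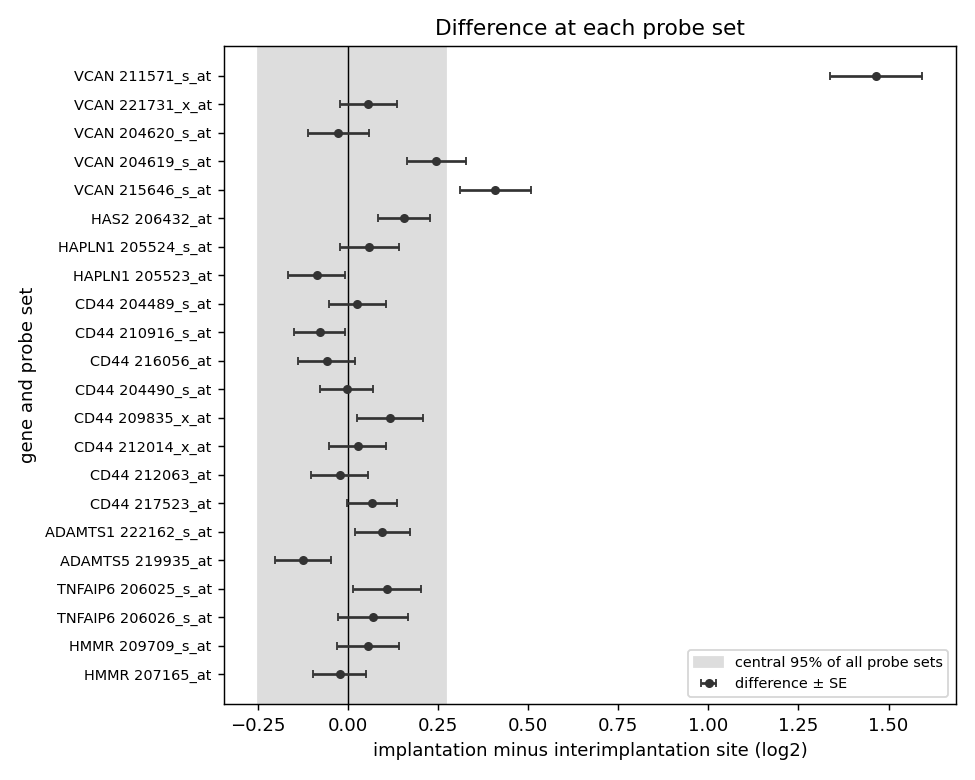
Difference between implantation and interimplantation sites (log2, points) with its SE (bars) at each of the 22 probe sets, with the grey band holding the central 95% of all 22215 probe sets. VCAN 211571_s_at (1.47) and 215646_s_at (0.41) lie outside the band, which runs from −0.25 to 0.27, and the other 20 probe sets lie inside it.

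The genes with the pattern most like the brightest VCAN probe set were CKS2, EIF5A, RAN, H2AZ1 and TUBA1B. They were the 5 closest of 7268 genes by root mean square distance over the 6 arrays. Each gene was centred on its own mean and read at its brightest probe set. The rest of the 11963 genes tested were not ranked. CKS2, which binds cyclin-dependent kinases, was closest, at a distance of 0.11, with 6.14, 6.25 and 6.18 at implantation sites, against 4.38, 5.25 and 4.89 at interimplantation sites. EIF5A, a translation factor, followed at 0.14, and RAN, the GTPase of nuclear transport, at 0.16. The histone variant gene H2AZ1 was at 0.24 and TUBA1B, an alpha-tubulin, at 0.25. In all 5, as in VCAN, interimplantation site 2 was the highest of the interimplantation arrays, a likeness in the order of arrays that the choice by distance favours. This order rests on the brightest probe sets. When probe sets ending in _s_at or _x_at were left out, RAN was at −0.08 between the groups and H2AZ1 at 0.64. CKS2, EIF5A and TUBA1B were not read in that setting. With the mean of each gene's probe sets, EIF5A was at 0.64 and RAN at 0.58, against 1.34 and 1.24 at the brightest. By that mean CKS2 was at 1.35, TUBA1B at 0.97 and H2AZ1 at 0.86.

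**Figure D4:**
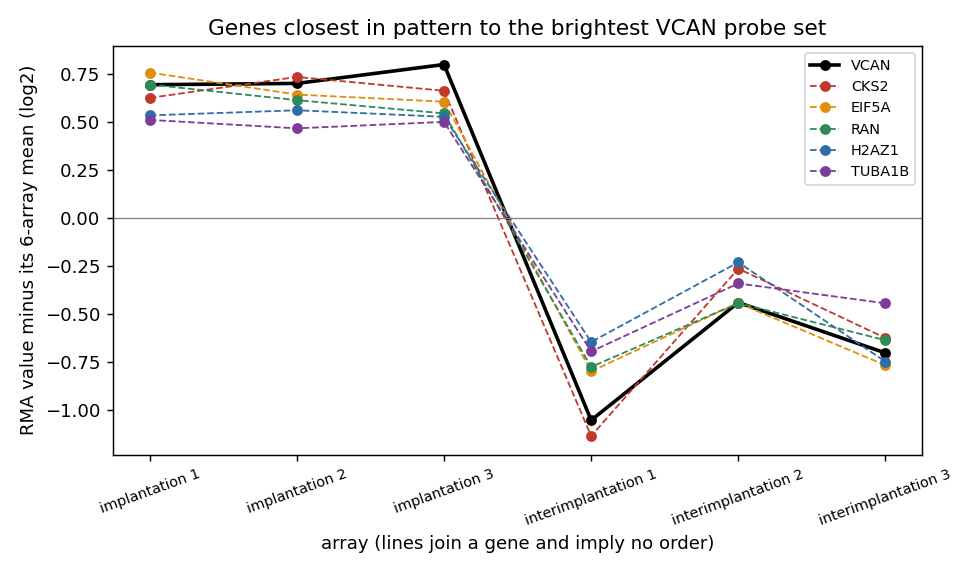
RMA values (log2) of VCAN 211571_s_at and of the 5 genes nearest to it in pattern, each minus its own mean over the 6 arrays, with points for arrays joined only to mark the gene. All 6 genes lie above their mean at the 3 implantation arrays and below it at the 3 interimplantation arrays, with interimplantation site 2 the highest of these. The choice by distance to VCAN, among the 7268 genes ranked, favours both likenesses.

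Further genes were read in 11 lists of 127 genes, some outside this matrix, such as mitotic genes and cytoskeletal partners of CD44. Of the 127 genes 111 were measured, each at its brightest probe set in a limma fit over 11963 genes. Of the 111 genes, 2 rose and 0 fell (1.8%, against 1.24% of all genes, 0.777% higher and 0.460% lower), while 10 (9.01%) had an unadjusted p under 0.05 and were higher, and 5 (4.505%) were lower, against 5.68% and 5.22% of all genes. Their median difference was 0.00, and that of all genes was −0.01. The genes that rose were FBLN1 and SRGN. Of the 10 higher genes with an unadjusted p under 0.05 in limma's test, 5 came from the mitotic list. Of the 5 lower ones, 4 came from the list of other proteoglycans. These shares therefore do not describe the matrix alone.

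FBLN1 encodes fibulin 1, a matrix protein that binds the carboxy-terminal domain of versican. Its brightest probe set gave 7.56, 7.26 and 7.28 at implantation sites, against 6.34, 6.57 and 6.41 at interimplantation sites, a difference of 0.92 ± 0.10 (SE, limma adjusted p = 0.000847). The groups were far apart at this probe set, while the mean of its 5 probe sets differed by 0.22 (adjusted p = 0.204). SRGN, serglycin, the proteoglycan of secretory granules, gave 3.90, 3.82 and 3.91 at implantation sites, against 3.45, 3.50 and 3.57 at interimplantation sites, a difference of 0.37 ± 0.07 (SE, limma adjusted p = 0.0353). SRGN was below the median brightness and missed the threshold whichever of the 6 arrays was left out (adjusted p from 0.0678 to 0.153).

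The other 9 versican ligands measured did not pass, with SELP at 0.18 and the microfibril protein FBN1 at 0.21 next by p. Among 6 hyaluronan-binding proteoglycans and link proteins 0 passed in limma's test and 1 higher gene had an unadjusted p under 0.05. It was ACAN, aggrecan, the cartilage relative of versican, with 6.17, 6.11 and 6.03 at implantation sites, against 5.80, 5.82 and 5.72 at interimplantation sites (0.32 ± 0.08 SE, limma adjusted p = 0.0690). Its groups did not overlap, but with the mean of its 3 probe sets ACAN was at 0.10. The brain genes NCAN and HAPLN2 were at −0.15 and −0.13.

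Hyaluronan turnover genes showed no call. Of 6 degrading enzymes 0 passed in limma's test and 0 had an unadjusted p under 0.05, with CEMIP2, a hyaluronidase of the cell surface, at 0.20, HYAL3 at −0.07 and CEMIP at −0.10. The 5 other hyaluronan receptors, led by LYVE1 of lymphatic endothelium at −0.08, TLR2 at 0.07 and TLR4 at −0.05, had 0 of either kind. The same held for the 6 genes of inter-alpha-inhibitor and pentraxin 3, where ITIH1, AMBP and ITIH2 were at 0.08, −0.05 and 0.02.

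Among 10 other versican-cleaving proteases and metalloprotease inhibitors 0 passed in limma's test, and 1 higher and 1 lower gene had an unadjusted p under 0.05. TIMP1, an inhibitor of matrix metalloproteases, had 6.22, 6.26 and 6.16 at implantation sites, against 5.81, 6.05 and 5.60 at interimplantation sites (0.39 ± 0.10 SE, limma adjusted p = 0.116). The groups did not overlap, and TIMP1 passed without interimplantation site 2 (0.51, adjusted p = 0.0365). TIMP2 lay on the other side, at −0.20 ± 0.08, and the protease ADAMTS8 was at −0.15.

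Supply of the polysaccharide chains also stayed without calls. Of 6 genes of UDP-sugar synthesis 0 passed in limma's test and GFPT1, which starts the hexosamine pathway, was at 0.21 with an unadjusted p of 0.0455, ahead of UAP1 at 0.11 and NAGK at −0.10. Of 19 genes of chondroitin sulfate synthesis, 0 passed and 0 had an unadjusted p under 0.05. PAPSS1, which makes the sulfate donor, was at 0.16, the chain polymerase CHSY1 at 0.18 and the sulfotransferase CHST11 at 0.14. The 6 cytoskeletal partners of CD44 had 0 of either kind, with radixin (RDX) at 0.18, ANK1 at −0.10 and moesin (MSN) at −0.09.

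Among 19 other proteoglycans SRGN alone passed in limma's test, and 4 lower ones had an unadjusted p under 0.05. These were perlecan (HSPG2, −0.22), glypican 3 (GPC3, −0.31), decorin (DCN, −0.25) and biglycan (BGN, −0.21), whose adjusted p lay between 0.293 and 0.349. The 18 mitotic genes, read beside HMMR, had 0 passes in limma's test, and 5 higher and 0 lower genes had an unadjusted p under 0.05. CDK1 (0.34, adjusted p = 0.0786), CDC20 (0.29) and CCNB1 (0.30) led these, while HMMR was at 0.06 and the list median at 0.02. Without probe sets ending in _s_at or _x_at CDK1 was at −0.011. For both lists, the shares of all genes with an unadjusted p under 0.05 were 5.68% higher and 5.22% lower.

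**Figure D5:**
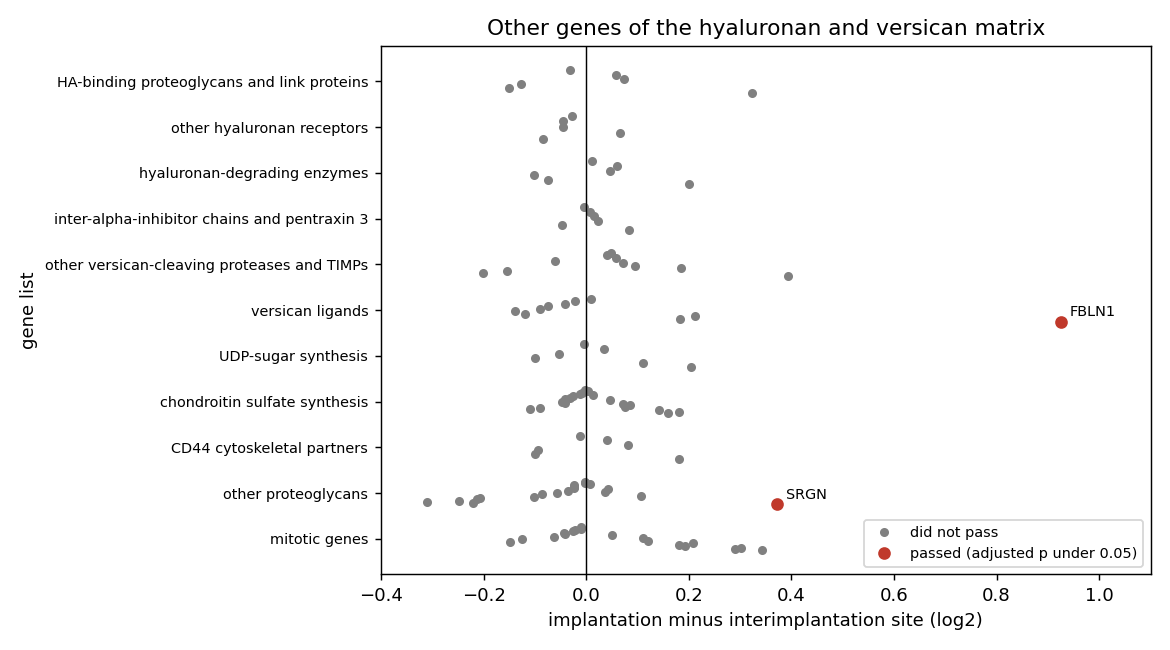
Difference between implantation and interimplantation sites (log2) of 111 genes in 11 lists, each point a gene at its brightest probe set, with genes past an adjusted p of 0.05 in red. FBLN1 (0.92) and SRGN (0.37) passed, and the other genes lie between −0.31 and 0.39.

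A piece of uterus holds several cell types, and fewer cells of a type cannot be told apart from less RNA per cell. Bright stromal genes were present in both groups, where VIM averaged 8.92 ± 0.14 at implantation and 9.14 ± 0.20 at interimplantation sites (SD, n = 3). In the limma fit over all genes, stromal markers had 0 passes higher and 1 lower of 8 (PDGFRA, −0.66) and smooth muscle markers 0 higher and 3 lower of 10 (TAGLN −0.56, ACTG2 −0.80, MYLK −0.53). Leukocyte markers had 1 lower of 9 (SPI1, −0.49), and mesothelial markers 1 higher of 4 (WT1, 0.74, a gene also of stroma), while KRT19, a keratin that epithelia also express, was at −0.39 with an unadjusted p under 0.05. The stromal list also held 1 higher gene, and the smooth muscle list 4 lower genes in all, at an unadjusted p under 0.05. Epithelial (10), endothelial (9), and trophoblast and embryo markers (8) had 0 passes, and an unadjusted p under 0.05 was seen in 0 higher and 3 lower epithelial markers and in 0 of the others. Over all genes of that fit, the share that passed was 0.777% as higher and 0.460% as lower. Before adjustment, limma's p lay below 0.05 for 5.68% of all genes as higher and 5.22% as lower. The mean log2 level of the smooth muscle list was 5.17 to 5.195 at implantation and 5.32 to 5.44 at interimplantation sites. For the epithelial list it was 4.195 to 4.28 at implantation and 4.34 to 4.38 at interimplantation sites. The stromal list ran from 5.41 to 5.43 at implantation and from 5.39 to 5.54 at interimplantation sites, and the trophoblast and embryo list from 4.37 to 4.38 at implantation and from 4.37 to 4.43 at interimplantation sites. Levels of the endothelial list were 4.57 to 4.62 at implantation and 4.62 to 4.71 at interimplantation sites, and those of the leukocyte list 4.73 to 4.78 at implantation and 4.78 to 4.84 at interimplantation sites. The few mesothelial markers averaged 4.15 to 4.38 at implantation and 4.14 to 4.19 at interimplantation sites. Signal at the 3′ end of actin relative to its 5′ end often serves as a measure of RNA quality. It was −2.08 ± 0.22 at implantation sites and −1.70 ± 0.15 at interimplantation sites (log2, SD, n = 3). The two-sided exact permutation p was 0.1, the smallest possible. This actin value was negative on every array, from −2.33 to −1.59. Whether these human probes measure the quality of hamster RNA was not tested. For GAPDH the same 3′ to 5′ value was −0.20 ± 0.16 at implantation and 0.13 ± 0.17 at interimplantation sites (exact permutation p = 0.2). The spiked hybridisation controls averaged 7.26 ± 0.22 at implantation and 7.57 ± 0.25 at interimplantation sites (exact permutation p = 0.3). The part of these markers and controls in the versican difference was not tested.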

How the data were processed

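The values deposited by the authors are log2 signals, 1 for each probe set on each array, from RMA run in Partek 6.6, as the submitters' processing notes name it. RMA removes background, equalises the arrays and summarises probes; its settings are not given in sources used here, and the log base was taken from the range of values (1.65 to 12.08). Medians of the arrays ran from 4.18 to 4.20, which hides any change of total RNA, and the number of arrays limits precision. Of 22283 probe sets 68 controls were left out. Correlations over probe sets were 0.989 to 0.995 within groups and 0.985 to 0.992 between groups, and 0 pairs of arrays were identical. The annotation gave 1 symbol to 19065 probe sets, several to 1043 and none to 2107, and all 10 symbols occur among hamster genes of the RefSeq assembly BCM_Maur_2.0. Sequences were not used here.

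The comparison used limma 3.58.1 under R 4.3.3 (eBayes after lmFit, two-sided, no covariate) on all probe sets, and for lists on 1 probe set per gene, the one with the highest mean, with Benjamini-Hochberg adjustment over the whole table and a threshold of 0.05. Controls were compared with exact permutation tests. The fit was tested on simulated data. Named genes were all probe sets of the 10 genes, every list gene that passed, the 3 genes of smallest p in each list and the 5 genes nearest to VCAN; further genes were named after their values were seen. Genes, lists and tests were chosen with earlier results of these data known. Alternatives left out arrays, added the replicate number as a block, and changed normalization, filter, weights, moderation, probe set names and the choice of probe set.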

Additional observations from a re-analysis of the deposited data

How the results depend on the processing

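VCAN 211571_s_at, on whose difference the choice of genes rested, passed in the 12 alternatives that held it, from which nothing is read, and no member probe set was lower and past the threshold in any of the 13. Across the alternatives the difference at VCAN 211571_s_at ran from 1.31 to 1.61, against 1.47 ± 0.13 (SE) in the main fit. At 215646_s_at it ran from 0.35 to 0.51, against 0.41 ± 0.10 (SE). Small differences changed sign at some probe sets, such as CD44 204490_s_at, from −0.02 to 0.03. Every VCAN probe set was absent without probe sets ending in _s_at or _x_at, and then 0 members passed, with 37 probe sets higher and 20 lower in all, against 156 and 79 in the full table; here fewer probe sets were tested. With array weights 2 members passed (the second was VCAN 215646_s_at) and 133 probe sets in all were lower. Leaving out single arrays gave 83 to 140 higher and 33 to 90 lower probe sets, 1 to 2 members that passed (2 without implantation site 1), and 1 to 2 list genes that rose. Higher probe sets numbered 86, 101 and 92 without implantation site 1, 2 and 3 and 83 without interimplantation site 3, and lower ones 33 and 38 without implantation site 1 and 3 and 42 without interimplantation site 2 or 3. The 2 list genes became 1 with the replicate block, 1 above the median brightness, 1 without probe sets ending in _s_at or _x_at, and 0 when probe sets were averaged per gene; the cause was not tested. RAN, higher at its brightest probe set, was at −0.077 without probe sets ending in _s_at or _x_at, and CDK1 at −0.011. The labels do not say whether same-numbered arrays came from the same animal. Correlations of deviations between them were 0.054, −0.0025 and 0.070, and 4 of 6 arrays were closest to their own number. These values cannot show whether the arrays were paired. The replicate block gave 159 higher and 93 lower probe sets. SRGN had an adjusted p of 0.0545 with it. Dim probe sets, 10 of the 22 below the first quartile, limit what can be said of HAS2 and ADAMTS5 most.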
